A study of Mus musculus with 15 samples.

Results

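Treg cells carry a set of surface receptors that tune what a T cell does once its antigen receptor is engaged. The 10 described here are the costimulatory receptor genes Cd28 and Icos, the coinhibitory receptor genes Ctla4, Lag3, Klrg1, Pdcd1, Tigit, Havcr2 and Btla, and Cd200, whose product is a ligand for an inhibitory receptor on other cells. They were taken by gene symbol, each by its brightest probe set, out of 19938 genes with an unambiguous symbol on the array. Each had a single probe set. Of the 10, 9 were bright enough to be tested, among 10964 genes in all; Havcr2 was not. The 9 lay above the brightness limit (log2 4.96, the median over probe sets) in every group, so none was tested only because 1 group was high.

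RNA was measured on 15 single-colour Affymetrix arrays of CD4+CD25+ cells sorted from mouse spleen, a gate that is rich in Treg cells. The genotypes were Ikzf2-/- (3 arrays), which lack Helios, dKO (3 arrays), which lack both Ikzf2 and Ikzf4, Ikzf4-/- (3 arrays), which lack Eos, and WT (6 arrays); the series asks what loss of either factor, or of both, does to expression. Helios and Eos are DNA-binding members of the Ikaros family with zinc fingers. The sources used here do not give strain, age, sex, the design of the deletions, pooling of animals or whether arrays of a genotype stand for separate animals. The p-values therefore rest on array-to-array spread, part of which may be technical. The arrays fall into 2 sets, inferred from the numbering of the WT arrays: dKO, Ikzf4-/- and WT 1 to 3 in one, Ikzf2-/- and WT 4 to 6 in the other. Knockout and WT arrays were compared only within a set, and dKO also with Ikzf4-/-, which asks what loss of Ikzf2 adds when Ikzf4 is missing too. Between the sets the WT arrays themselves differed widely (612 higher and 6423 lower in WT 4 to 6 than in WT 1 to 3, limma), so levels are not set side by side across them.

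CD28 binds CD80 and CD86 on antigen-presenting cells and gives the classical second signal of T cell activation, and CTLA-4 competes for the same ligands and is needed for Treg cell suppression. ICOS, a relative of CD28, binds ICOS ligand and favours effector Treg cells and their interleukin-10. LAG-3 binds MHC class II, PD-1 binds PD-L1 and PD-L2, TIGIT binds the poliovirus receptor, TIM-3 (from Havcr2) binds galectin-9 among others, BTLA binds the TNF receptor family member HVEM, and KLRG1 binds cadherins. KLRG1, ICOS, LAG-3, PD-1, TIGIT and TIM-3 are typical of activated or effector Treg cells, while BTLA is also abundant on B cells and CD200 is found on many cell types.

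The Cd28, Ctla4 and Icos genes lie next to each other on mouse chromosome 1 in RefSeq's gene order, with 0 other protein-coding genes between neighbours. Ikzf2 lies on the same chromosome, 39 protein-coding genes from Icos, and Pdcd1 lies 238 genes beyond Ikzf2. Klrg1 and Lag3 share chromosome 6 with 55 protein-coding genes between them, and Btla and Cd200 are neighbours on chromosome 16, 21 genes from Tigit. Ikaros family proteins bind sites with the core GGGAA. RefSeq promoter windows of the GRCm38.p6 build, the 250 bases before the start of the gene, were at hand for 6 of the 10 genes. The core was sought on both strands (GGGAA or TTCCC): 2 windows held it (Cd200 and Pdcd1) and 4 did not (Ctla4, Tigit, Havcr2 and Btla). Among 32851 promoter windows of the same length, 56.2% held it. The windows of Ctla4 and Cd200 are shown because the first is the middle gene of the chromosome 1 cluster and had no core, while the second had the most cores of the 6 windows; capitals mark the core, and a match is a run of letters, not a measured binding site.
Ctla4, GRCm38.p6 chr1:60908775-60909024, plus strand: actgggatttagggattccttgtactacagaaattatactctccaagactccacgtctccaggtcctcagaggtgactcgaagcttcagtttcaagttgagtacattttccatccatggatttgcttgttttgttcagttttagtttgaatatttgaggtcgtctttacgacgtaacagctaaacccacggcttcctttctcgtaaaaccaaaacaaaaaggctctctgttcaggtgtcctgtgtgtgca
Cd200, GRCm38.p6 chr16:45409054-45409303, minus strand: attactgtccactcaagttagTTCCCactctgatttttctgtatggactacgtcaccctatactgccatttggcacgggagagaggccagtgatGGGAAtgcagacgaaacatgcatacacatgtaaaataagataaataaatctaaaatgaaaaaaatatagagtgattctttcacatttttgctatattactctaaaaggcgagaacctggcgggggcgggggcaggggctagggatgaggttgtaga
The Cd200 cores begin 229 and 156 bases before the start site. Cd28, Icos, Lag3 and Klrg1 are named only.

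In the plot of signals by array, all 15 values of each gene are shown. The sort was checked against marker genes. T cell markers stood at mean log2 signals between 10.46 and 10.99 on all arrays, and the 8 Treg cell markers, Foxp3 and Il2ra among them, between 8.97 and 10.3, with the low end on Ikzf2-/- 2. The mean of 12 B cell markers was 7.42 on Ikzf2-/- 3 and 6.58 on WT 1, against 4.59 to 5.67 on the other arrays, and the neutrophil markers were highest on the same pair of arrays (8.24 and 6.30). The neutrophil markers were also higher on all Ikzf2-/- arrays (6.18, 5.71 and 8.24) than on WT 4 to 6 (4.81 to 5.31). So were 10 cell cycle markers, with means of 6.95, 6.62 and 7.91 in Ikzf2-/- cells against 6.06 to 6.45 in WT 4 to 6. The part of either in the receptor values of Ikzf2-/- cells was not tested. In the first set, the cell cycle markers were higher on dKO 2 and dKO 3 (7.68 and 7.31) than on all Ikzf4-/- and WT arrays (6.15 to 6.92). On dKO 1 they were at 6.55. Their part in the receptor values of dKO cells was not tested either. The Y-linked gene Eif2s3y read 7.94 and 8.81 on dKO 2 and dKO 3, 8.64 on Ikzf4-/- 3 and 8.17 on WT 3, against 2.87 to 3.09 on the other arrays. With its signal as a covariate, a setting chosen after seeing the data, the change of dKO from WT was 0.38 for Cd28, 0.36 for Icos and 0.84 for Lag3, and no gene on the array was called in any of the 4 comparisons. The probe set of Ikzf2 read 10.06, 9.15 and 9.22 in Ikzf2-/- cells against 10.25 to 10.38 in WT 4 to 6, and 10.11, 10.16 and 10.59 in dKO cells against 10.46 to 10.76 in WT 1 to 3. That of Ikzf4 was not lower in any knockout. It read 8.22, 8.13 and 8.19 in Ikzf4-/- cells, above all WT 1 to 3 arrays (7.83 to 8.07), a pattern that 3.62% of all genes had. The change was 0.21 (SE 0.10, limma unadjusted p = 0.0599). In dKO cells it read 8.20, 8.07 and 8.11. The log2 change of Ikzf2 was -0.86 (SE 0.20, limma adjusted p = 0.0880) in Ikzf2-/- against WT, with no overlap. In dKO against WT it was -0.37 (SE 0.20), and dKO 3 lay within the WT values. Whether the probes of either gene fall inside the deleted parts is not stated in the sources used here. The targeted genes therefore do not settle the label of each array. In such bulk samples, fewer cells of a type and less RNA per cell cannot be told apart.

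**Figure D1:**
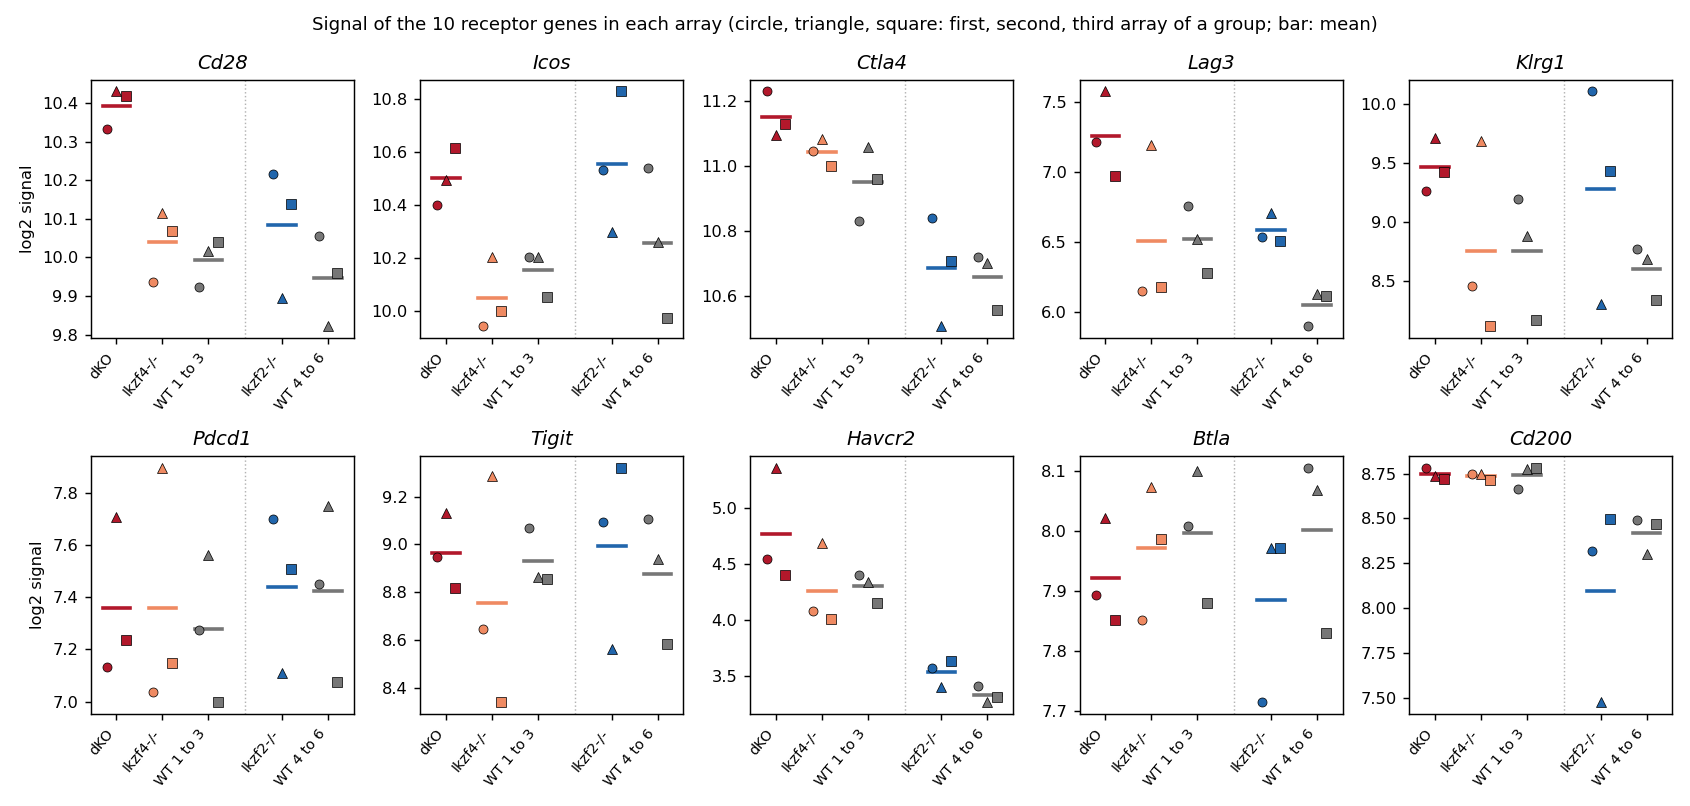
Log2 signal (vertical axis, deposited RMA values) of each of the 10 receptor genes on each of the 15 arrays, with groups on the horizontal axis; points are arrays and short bars are group means. All 3 dKO arrays lie above the Ikzf4-/- and WT 1 to 3 arrays for Cd28, Icos and Ctla4, while for Btla and Pdcd1 the groups overlap.

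The clearest difference among the receptors was the level of Cd28 in dKO cells. Cd28 read 10.33, 10.43 and 10.42 on the dKO arrays, against 9.94, 10.12 and 10.07 on the Ikzf4-/- arrays and 9.92, 10.02 and 10.04 on the WT 1 to 3 arrays (all log2 signals). Every dKO array lay above all 6 arrays of the other genotypes in its set. The log2 change was 0.40 (SE 0.10, 95% interval 0.20 to 0.60) against WT and 0.35 (SE 0.10, 0.15 to 0.56) against Ikzf4-/-, which is 1.32-fold and 1.28-fold. Cd28 ranked 28 and 36 by p-value among the 10964 genes in these comparisons, with unadjusted p of 0.000917 and 0.00240, and did not pass limma's adjusted threshold of 0.05 (adjusted p = 0.359 and 0.724). In Ikzf2-/- cells Cd28 read 10.22, 9.90 and 10.14 against 10.05, 9.82 and 9.96 in WT 4 to 6. Those groups overlap, and the change of 0.14 (SE 0.10, -0.07 to 0.34) did not pass (adjusted p = 0.507). Between Ikzf4-/- and WT 1 to 3 the change was 0.05 (-0.16 to 0.25).

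Icos, the other costimulatory receptor, showed the same separation in dKO cells. It read 10.40, 10.49 and 10.62 in dKO cells, against 9.94, 10.20 and 9.997 in Ikzf4-/- cells and 10.20, 10.20 and 10.05 in WT 1 to 3. All dKO arrays were again above all Ikzf4-/- and WT arrays of the set. The log2 change was 0.46 (SE 0.15, 95% interval 0.14 to 0.77) against Ikzf4-/- and 0.35 (SE 0.15, 0.03 to 0.67) against WT, with unadjusted p of 0.00843 and 0.0335 and limma adjusted p of 1 for both. In Ikzf2-/- cells Icos read 10.53, 10.30 and 10.83 against 10.54, 10.26 and 9.97 in WT 4 to 6, and the groups overlap. That change of 0.30 (SE 0.15) was 0.16 without Ikzf2-/- 3, an array with high B cell markers; neither passed (adjusted p = 0.344 and 0.644).

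Ctla4 was bright throughout and differed little between genotypes. Its log2 signals were 11.23, 11.10 and 11.13 in dKO cells, 11.05, 11.08 and 11.002 in Ikzf4-/- cells and 10.83, 11.06 and 10.96 in WT 1 to 3. The dKO arrays were the top 3 of the 9, but by small steps: the change was 0.20 (SE 0.09, 95% interval -0.0014 to 0.40) against WT and 0.11 (SE 0.09, -0.09 to 0.31) against Ikzf4-/-, neither of which passed (limma adjusted p = 1 for both). In Ikzf2-/- cells Ctla4 read 10.84, 10.51 and 10.71, against 10.72, 10.70 and 10.56 in WT 4 to 6. The groups overlap, and the 95% interval of the change, -0.18 to 0.23, spans 0.885-fold to 1.17-fold. Cd28, Ctla4 and Icos were the 3 receptor genes whose dKO arrays stood above both other genotypes of the set. Over all genes, dKO arrays stood above all WT arrays for 5.34% and above all Ikzf4-/- arrays for 4.09%. The share with both was not counted. In Ikzf2-/- cells all 3 genes overlapped WT.

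Lag3, which encodes the MHC class II-binding inhibitory receptor, had the largest difference of the 9 tested genes in both comparisons with dKO. It read 7.21, 7.57 and 6.97 in dKO cells against 6.75, 6.52 and 6.28 in WT 1 to 3, with no overlap. The log2 change was 0.73 (SE 0.23, 95% interval 0.23 to 1.24), 1.66-fold, with an unadjusted p of 0.00749 that did not pass in limma (adjusted p = 0.746). Ikzf4-/- arrays were split, with 6.15 and 6.18 on arrays 1 and 3 and 7.19 on array 2, which lies among the dKO values. Against dKO this left a change of 0.75 (SE 0.23, adjusted p = 1) with all arrays and 1.09 without Ikzf4-/- 2 (adjusted p = 0.114). In Ikzf2-/- cells Lag3 read 6.53, 6.70 and 6.50, against 5.90, 6.13 and 6.11 in WT 4 to 6. No Ikzf2-/- array reached down to a WT array, and Lag3 was the only receptor of the 10 of which this held in that comparison. The change was 0.53 (SE 0.23, 0.03 to 1.04), 1.45-fold, and did not pass (limma adjusted p = 0.278). The SE pools the spread of all groups, so Ikzf4-/- 2 widens it though that array is not compared here. Without Ikzf4-/- 2 the change was still 0.53, with a limma unadjusted p of 0.00366 (0.0394 with all arrays) and an adjusted p of 0.142. Without Ikzf2-/- 3 and WT 1, the arrays with high B cell markers (a setting chosen after seeing the data), the change was 0.57.

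Klrg1, a lectin-like inhibitory receptor of effector Treg cells, had mean differences close in size to those of Lag3 but varied far more between arrays. It read 9.26, 9.71 and 9.42 in dKO cells, 8.46, 9.69 and 8.12 in Ikzf4-/- cells and 9.20, 8.88 and 8.17 in WT 1 to 3. All dKO arrays were above WT, the lowest of them narrowly, while Ikzf4-/- 2 lay at the top of the dKO range. The change against WT was 0.71 (SE 0.43, 95% interval -0.22 to 1.64) and that against Ikzf4-/- was also 0.71 (-0.22 to 1.64). In Ikzf2-/- cells Klrg1 read 10.11, 8.30 and 9.43 against 8.77, 8.69 and 8.34 in WT 4 to 6. Array 2 was below all WT arrays and the other two were above them. The change of 0.68 (SE 0.43) was 1.17 without Ikzf2-/- 2 and 0.26 without Ikzf2-/- 1, and none of these passed in limma (adjusted p = 0.472, 0.116 and 0.777).

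Pdcd1, Tigit and Btla showed no separation of genotypes. Pdcd1, which encodes PD-1, read 7.13, 7.71 and 7.24 in dKO cells, 7.04, 7.90 and 7.15 in Ikzf4-/- cells and 7.28, 7.56 and 6.997 in WT 1 to 3, and array 2 was the highest of each genotype. It read 7.70, 7.11 and 7.51 in Ikzf2-/- cells against 7.45, 7.75 and 7.07 in WT 4 to 6. Its changes lay between -0.0006 and 0.08 in the 4 comparisons, with an SE of 0.25. Tigit read 8.95, 9.13 and 8.82 in dKO cells, 8.65, 9.28 and 8.34 in Ikzf4-/- cells and 9.07, 8.86 and 8.86 in WT 1 to 3, and 9.09, 8.56 and 9.32 in Ikzf2-/- cells against 9.11, 8.94 and 8.58 in WT 4 to 6. Its changes of -0.17 to 0.21 all lie within their error (SE 0.23). The intervals of Pdcd1 and Tigit are wide: for dKO against WT they run from -0.45 to 0.61 and from -0.45 to 0.52. In this fit a change of the size seen for Icos would not have been told from 0. The fit pools the spread of a gene over all groups, compared or not. For Tigit the SD was 0.16 in dKO and 0.12 in WT 1 to 3. It was larger in Ikzf4-/- (0.48), Ikzf2-/- (0.39) and WT 4 to 6 (0.27), which this comparison does not use.

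Btla was more tightly measured. It lay between 7.85 and 8.10 on the 9 arrays of its first set, with dKO at 7.89, 8.02 and 7.85, Ikzf4-/- at 7.85, 8.07 and 7.99 and WT 1 to 3 at 8.01, 8.10 and 7.88. Ikzf2-/- arrays read 7.71, 7.97 and 7.97 against 8.11, 8.07 and 7.83 in WT 4 to 6. All 4 changes were below 0, at -0.12 to -0.03 (SE 0.10), and none passed (limma adjusted p = 0.628 for Ikzf2-/- and 1 for the others). The 95% interval for dKO against WT ran from -0.30 to 0.15.

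Cd200 had the narrowest range of the 10 genes over the dKO, Ikzf4-/- and WT 1 to 3 arrays, and 1 array far from the rest in Ikzf2-/-. It read 8.78, 8.74 and 8.72 in dKO cells, 8.75, 8.75 and 8.71 in Ikzf4-/- cells and 8.66, 8.77 and 8.78 in WT 1 to 3. All 9 lie between 8.66 and 8.78. In Ikzf2-/- cells it read 8.32, 7.48 and 8.49 against 8.49, 8.30 and 8.47 in WT 4 to 6. A single array, Ikzf2-/- 2, lay far below the rest, and the change of -0.32 (SE 0.18, limma adjusted p = 0.414) was -0.01 without it. The same array had the lowest mean of Treg cell markers and the lowest Ctla4, Icos, Cd28, Pdcd1, Tigit and Klrg1 of its group; the part of its Treg cell content in these values was not tested.

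Havcr2, which encodes TIM-3, was below the brightness limit in group mean everywhere and was not tested. It read 4.54, 5.36 and 4.40 in dKO cells, 4.08, 4.69 and 4.01 in Ikzf4-/- cells and 4.40, 4.34 and 4.15 in WT 1 to 3, and 3.57, 3.40 and 3.63 in Ikzf2-/- cells against 3.41, 3.27 and 3.31 in WT 4 to 6. Only dKO 2 lay above the limit. The mean log2 signal of the cell cycle markers was also highest on dKO 2 among the first set's arrays, at 7.68, against 6.55 and 7.31 on the other dKO arrays, 6.15 to 6.92 in Ikzf4-/- and 6.40 to 6.91 in WT 1 to 3. Its part in the Havcr2 signal was not tested.

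Over the 10 genes, most values were higher on average where Ikzf2 was missing, and the median was near 0 where only Ikzf4 was. In dKO against WT, 9 of the 10 changes were above 0, against 51.8% of all genes tested. Their median was 0.28 against 0.00 over all genes tested (0.20 to 0.32 with 1 array left out). Havcr2, dim and not tested, is among the 10, while the values over all genes cover tested genes only. Of the 9 tested, Ctla4 had the middle change, at 0.20. For 5 genes (Cd28, Icos, Ctla4, Lag3 and Klrg1) all dKO arrays lay above all WT arrays. Over all genes that last pattern held for 5.34%, and the opposite, which no receptor showed, for 4.22%. At an unadjusted p under 0.05, Cd28, Lag3 and Icos were higher (3 of 9 tested, against 2.39% of all genes) and none was lower (1.99% of all genes). In dKO against Ikzf4-/-, 8 changes were above 0, against 49.3% of all genes, with a median of 0.28 (0.17 without dKO 2, 0.43 without Ikzf4-/- 2). The middle change of the 9 tested was 0.21, that of Tigit. Cd28, Icos and Ctla4 did not overlap (3 of 10, against 4.09%), and Cd28, Lag3 and Icos were higher at an unadjusted p under 0.05 (3 of 9, against 1.79%). None was lower in either way, where 4.19% and 1.69% of all genes were. These 2 comparisons share the dKO arrays and are not separate evidence. In Ikzf2-/- against WT, 8 changes were above 0, against 54.5% of all genes, with a median of 0.13 against 0.02 over all genes. Of the 8, Ctla4 (0.03) and Pdcd1 (0.01) were near 0. Without Ikzf2-/- 1 these 2 were at -0.05 and -0.12, and without Ikzf2-/- 3 Tigit was at -0.05 and Pdcd1 at -0.02. The median of the 10 was 0.25 without Ikzf2-/- 2 and 0.21 without WT 4, but 0.06 without WT 6 or without Ikzf2-/- 3 and 0.07 without Ikzf2-/- 1. Lag3 alone did not overlap (1 of 10, against 10.7%) and alone had an unadjusted p under 0.05 (1 of 9, against 10.9%). Those 2 shares are near those of all genes. None was lower in either way, where 5.50% and 5.45% of all genes were. In Ikzf4-/- against WT the median was -0.01 (-0.19 to 0.07 with 1 array left out), and 4 changes were above 0, against 52.9% of all genes. No gene separated (0 of 10, against 3.62% higher and 2.92% lower) or had an unadjusted p under 0.05, where 1.16% of all genes were higher and 1.02% lower. After adjustment over all genes, limma called none of the 9 in any comparison. It called 0.0638% of all genes in Ikzf2-/- against WT, 0.0638% in dKO against WT, 0.0274% in dKO against Ikzf4-/- and 0% in Ikzf4-/- against WT. Because the genes were picked with earlier results of these data known, their shares are a description.

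**Figure D2:**
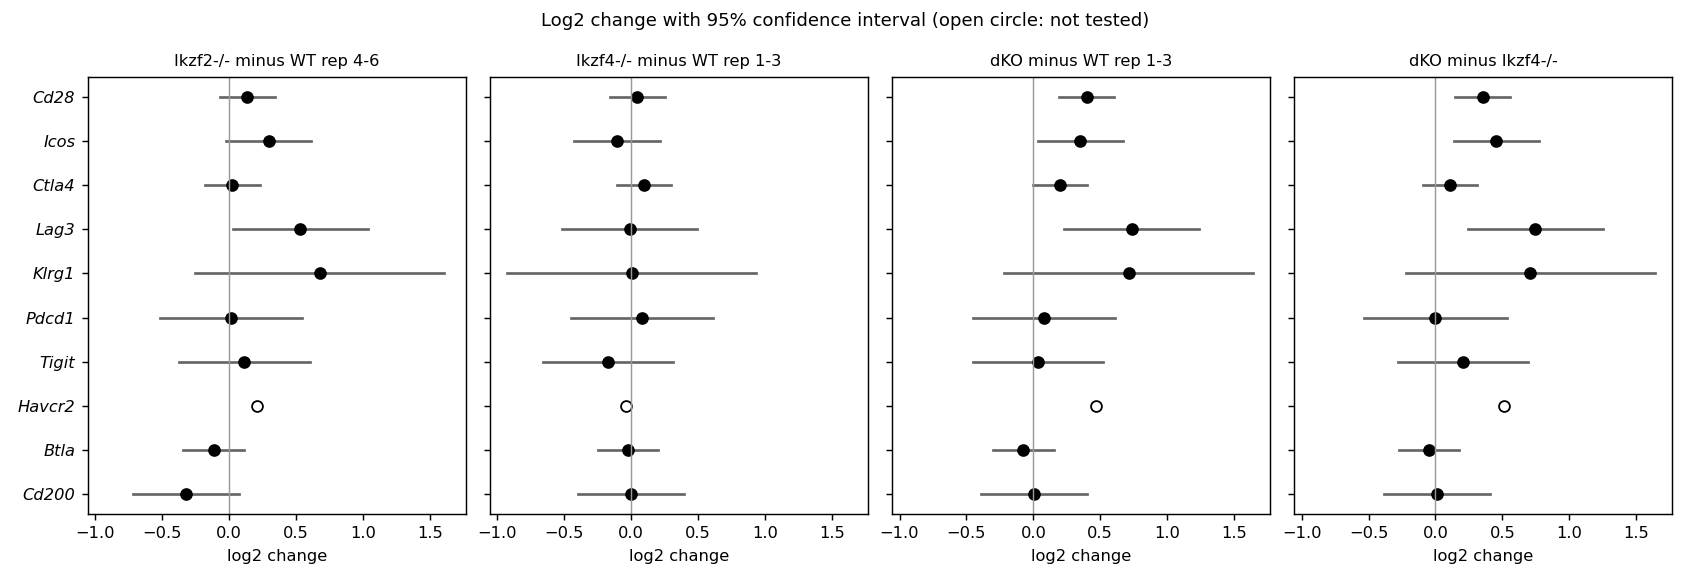
Log2 change of each receptor gene (horizontal axis) in the 4 comparisons, with 95% confidence intervals as lines; Havcr2, which was not tested, has no interval. The intervals of Cd28, Icos and Lag3 lie above 0 in both comparisons with dKO, and in Ikzf4-/- against WT every point lies between -0.17 and 0.09.

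Ikzf2 is missing in both Ikzf2-/- and dKO, and the comparisons Ikzf2-/- against WT 4 to 6 and dKO against Ikzf4-/- share no array. Of the 10 genes, 8 had the same sign in both (57.6% of all genes did) and 7 were higher in both (30.7% of all genes). The 7 include Havcr2, not tested. They also include Ctla4 and Tigit, whose changes in Ikzf2-/- were -0.05 without Ikzf2-/- 1 and -0.05 without Ikzf2-/- 3, respectively. In the plot of one against the other, Lag3 (0.53 and 0.75), Klrg1 (0.68 and 0.71) and Icos (0.30 and 0.46) lie furthest into the upper right, followed by Havcr2 (0.21 and 0.51, not tested) and Cd28 (0.14 and 0.35), while Cd200 departs through Ikzf2-/- 2 alone. Whether loss of Ikzf2 changed a receptor more in the absence of Ikzf4 was tested as the difference of those changes. It was above 0 for 9 of 10 genes, against 45.4% of all genes. That count depended on Ikzf2-/- 2. Without this array the difference was -0.0062 for Ctla4, -0.12 for Tigit, -0.18 for Pdcd1 and -0.46 for Klrg1, and above 0 for the rest. The median difference over the 10 was 0.13 with all arrays, and ranged from 0.03 (without Ikzf2-/- 2) to 0.30 (without Ikzf4-/- 2) when 1 array was left out. No receptor passed or had an unadjusted p under 0.05. Of all genes, 0% passed, and 1.81% were higher and 4.49% lower at the unadjusted threshold. The change of dKO from WT minus that of Ikzf2-/- from WT had a median of 0.12 (0.02 without dKO 2 to 0.22 without Ikzf2-/- 1), and its smallest limma adjusted p was 0.697, for Cd28. No receptor had an unadjusted p under 0.05 in it, where 2.38% of all genes were higher and 4.92% lower. In the average of the 2 comparisons that share no array, a contrast chosen after seeing the data, 4 of 9 receptors were higher at an unadjusted p under 0.05 (8.14% of all genes) and 0 passed after adjustment (0.219% of all genes).

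**Figure D3:**
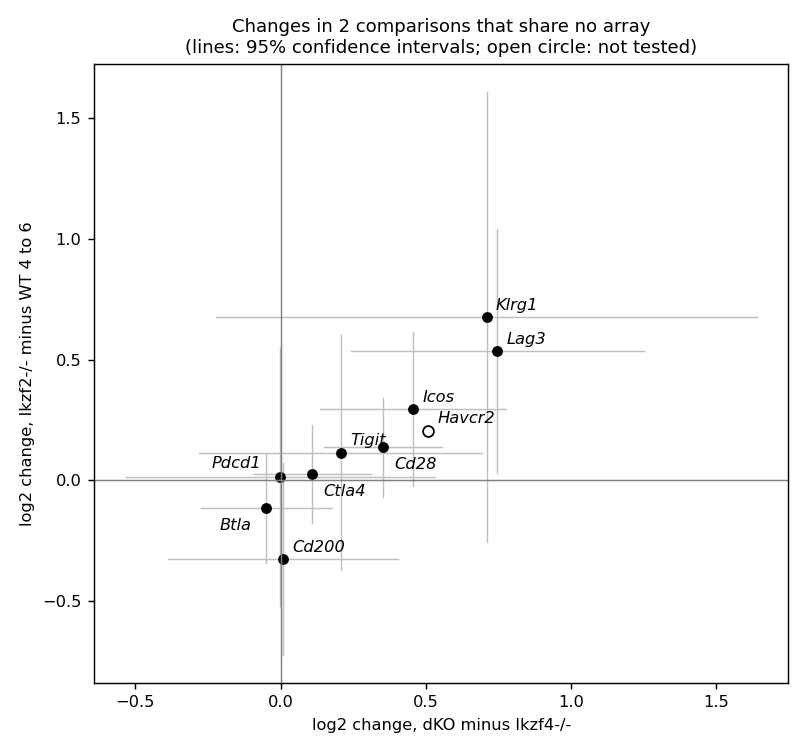
Log2 change in Ikzf2-/- against WT 4 to 6 (vertical axis) against log2 change in dKO against Ikzf4-/- (horizontal axis) for the 10 receptor genes, with 95% confidence intervals as grey lines; the open circle is Havcr2, not tested. Klrg1, Lag3 and Icos lie furthest to the upper right, and Btla is below 0 on both axes.

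Some receptors also varied together between arrays of the same genotype. In the plot of signals relative to each set's mean, Ikzf4-/- 2 had the highest value of its group for all 10 genes, narrowly so for Cd200. It stood 0.43, 0.70, 0.56 and 0.40 above the set mean for Lag3, Klrg1, Pdcd1 and Tigit. WT 3 was low in Lag3 (-0.48) and Klrg1 (-0.82) and WT 6 in Klrg1 (-0.60) and Icos (-0.43). Across the 15 arrays, after the mean of each set was subtracted, the signals of Lag3 and Havcr2 correlated at r = 0.858, Tigit and Klrg1 at 0.779 and Icos and Cd28 at 0.772, while Btla and Cd28 were at -0.306. With the mean of each genotype and set removed instead, these were 0.784, 0.832, 0.529 and -0.102. Lag3 and Cd28, at 0.633 with set means removed, were at -0.000675 within genotypes. These are descriptions over arrays that share genotypes and normalization. The spread of the 10 genes within a genotype, as the median SD, was 0.217 in Ikzf2-/-, 0.133 in dKO, 0.255 in Ikzf4-/-, 0.117 in WT 1 to 3 and 0.139 in WT 4 to 6. Over all genes it was 0.194, 0.0983, 0.0922, 0.102 and 0.110, so Ikzf4-/- arrays were as alike as the other groups over the genome but not for these receptors.

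**Figure D4:**
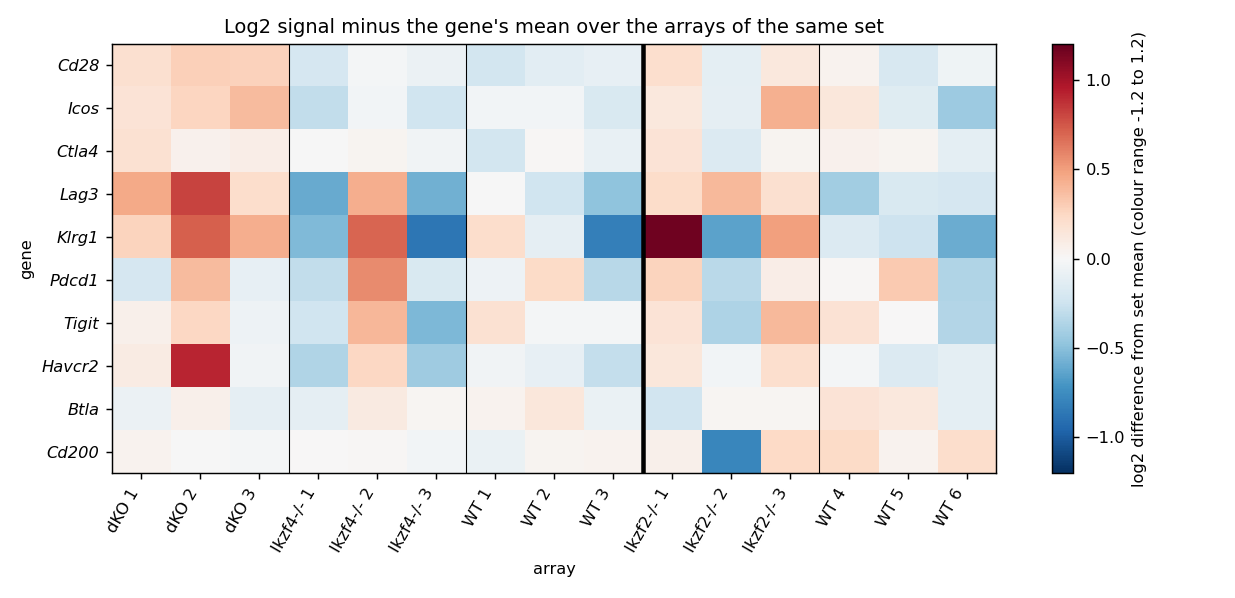
Log2 signal of each receptor gene on each array minus that gene's mean over all arrays of the same set, drawn as a colour grid with genes in rows and arrays in columns. Ikzf4-/- 2 is high in Lag3, Klrg1, Pdcd1 and Tigit, and Ikzf2-/- 2 is low in Cd200 (-0.78) and Klrg1 (-0.64).

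For each receptor, the genes outside the 10 with the most similar pattern over the 15 arrays, set means subtracted, were picked by Pearson r. Lag3 was most like Il10, the gene of the inhibitory cytokine interleukin-10 (r = 0.913, and 0.859 without the 2 arrays farthest from the median of Lag3). Il10 read 6.48, 7.62 and 6.19 in dKO cells, 4.85, 7.15 and 5.40 in Ikzf4-/- cells and 5.92, 5.93 and 5.05 in WT 1 to 3, and 6.57, 6.18 and 6.73 in Ikzf2-/- cells against 5.01, 5.08 and 4.77 in WT 4 to 6. Ikzf4-/- 2 stands out in Il10 as it does in Lag3. With group means removed r was 0.883, on the same arrays by which Il10 was picked. Cd28 was most like Gpm6b, a membrane glycoprotein gene (0.888), and Csf1, the macrophage colony-stimulating factor gene (0.887). Gpm6b read 6.91, 6.88 and 7.05 in dKO cells, 5.93, 6.05 and 6.19 in Ikzf4-/- cells and 5.68, 6.16 and 6.11 in WT 1 to 3, and limma called it in dKO against WT (0.96, SE 0.15, adjusted p = 0.0406). That call was made in 3 of the 15 fits that each left out 1 array, with adjusted p between 0.0347 and 0.236. With group means removed, the correlation with Cd28 was 0.551 for Gpm6b and 0.575 for Csf1. Icos was most like Glrx (0.918) and Gzmb (0.91), which encode glutaredoxin and granzyme B, and Klrg1 most like Gata3 (0.902), a transcription factor gene, and Fgl2 (0.888), which encodes a secreted product of Treg cells. Tigit was most like Gadd45b (0.912) and Nsd2 (0.905), Pdcd1 like Tex10 (0.871) and Tlk1 (0.87), and Ctla4 like Hacd3 (0.869) and Fgd6 (0.861). Havcr2 was most like Ect2 (0.925) and Clspn (0.924), both genes of the cell cycle. Havcr2 is below the brightness limit, and Ect2, with group means of 4.56 to 5.18, is near it. Btla had the weakest matches, Mx1 (0.764) and Akap17b (0.762). Cd200 had the strongest, Vps33a (0.98) and Cblb (0.962). Without the 2 arrays farthest from the Cd200 median, Ikzf2-/- 2 and Ikzf2-/- 3, these were 0.906 and 0.722. Each r is among the 2 highest over the tested genes for its receptor and is given with no p.

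**Figure D5:**
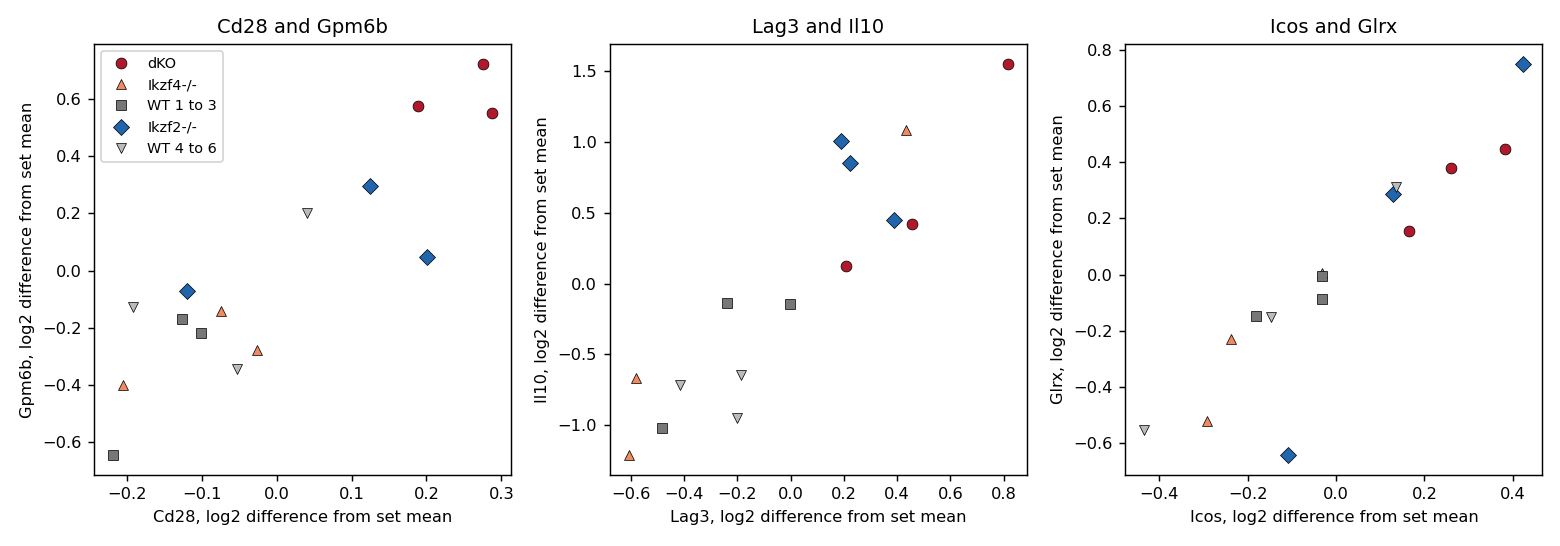
Log2 signals relative to the set mean of Gpm6b against Cd28, Il10 against Lag3 and Glrx against Icos (vertical against horizontal axis), with a point for each of the 15 arrays, marked by genotype. For Cd28 and Gpm6b the dKO arrays stand apart at the upper right (r = 0.888), and for Lag3 and Il10 the Ikzf4-/- arrays are spread along the diagonal (r = 0.913).

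The genes around these receptors were described by 4 lists. Of 17 genes of ligands and counter-receptors, such as Cd80, Cd86 and Lgals3, 11 were tested, and limma called none of them in any of the 4 comparisons. The values nearest to a call included Lgals3, the galectin-3 gene, at 0.35 in Ikzf2-/- against WT (SE 0.13, adjusted p = 0.211). The list's median was 0.01, -0.05, -0.09 and -0.05 in Ikzf2-/- against WT, Ikzf4-/- against WT, dKO against WT and dKO against Ikzf4-/-. Of 18 other coreceptors of T cells, 15 were tested and none was called. At an unadjusted limma p under 0.05, 3 of them were lower and 0 higher in dKO against WT (1.99% and 2.39% of all genes). In Ikzf2-/- against WT 2 were lower and 0 higher (5.45% and 10.9%), and in dKO against Ikzf4-/- 2 were lower and 1 higher (1.69% and 1.79%). Cd160, an inhibitory receptor that binds HVEM as BTLA does, was lower on average, at -0.55 in Ikzf2-/- (SE 0.14, adjusted p = 0.105), -0.66 in dKO against WT (unadjusted p = 0.000495, adjusted p = 0.258) and -0.53 in dKO against Ikzf4-/- (adjusted p = 0.733).

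Of 30 genes of proximal signalling, the kinases, adaptors and phosphatases that carry the receptors' signals, 26 were tested and none was called. Their median was -0.09 in Ikzf2-/- against WT and 0.02 in dKO against WT. Of 28 genes for transcription factors and receptor trafficking, 26 were tested and none was called. Ap2m1, a subunit of the clathrin adaptor that takes CTLA-4 into the cell, came nearest, at 0.44 in Ikzf2-/- against WT (adjusted p = 0.0700). Maf, a transcription factor linked to Il10 and Icos, stood at 0.51 in dKO against WT (adjusted p = 0.366). Over the 4 lists and 4 comparisons the medians lay between -0.09 and 0.09.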

How the data were processed

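The authors deposited log2 signals of 35556 probe sets on 15 arrays. Per the submitters' processing notes, Affymetrix Expression Console 1.3.1 and RMA were used. This method corrects background, equalises the distributions of the arrays and combines the probes of a probe set, and it shrinks differences of dim genes. Total RNA (15 ng per array) was amplified and labelled with biotin, per the labels' protocols. No scanner files were used here. Array medians lay between 4.82 and 5.01; the number of arrays limits the precision.

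Gene names came from the platform's annotation table, updated by Entrez identifier: 21789 had 1 symbol, 1621 had several and 12146 were unlisted. The brightest probe set stood for a gene. Genes with any group mean above log2 4.96 were tested with limma 3.58.1 in R 4.3.3 (lmFit and eBayes, 5 cell means, WT split by set), with Benjamini-Hochberg adjustment over 10964 genes at 0.05. The spread of a gene was pooled over these groups, so an outlying array in any group widens its SE in every comparison.

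The 2 sets were inferred from the numbering and from equal values: pairs of arrays within the first set shared 2290 exactly equal probe set values on average, within the second 34.4, and across sets 0.0741. The members, lists and tests were chosen with earlier results of these data known. The naming rule took all 10 receptors, up to 2 genes with the smallest p per list and comparison, and the 2 genes most alike to each receptor; examples from these are printed.

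Replicate numbers are shared in the first set. Deviations of same-numbered arrays from their group means correlated at 0.138, 0.217 and 0.303 between Ikzf4-/- and WT and at 0.428, 0.196 and 0.267 between dKO and Ikzf4-/-, above the limit of 0.1 at which numbers were taken to pair arrays; only the values speak for this pairing. Between dKO and WT the correlations of 0.0708, 0.045 and 0.173 were not all above it. On simulated data for dKO against WT, the fit recovered 56% of genes changed by log2 0.5 and 90% of those changed by 1, among 10964 genes. The simulation changed 200 genes and drew independent noise with the same SD for a gene in every group. The real groups differed in spread and same-numbered arrays were correlated, so these shares need not hold for the receptors. Alternatives covered the filter, the fit and scaling, array weights, pooled WT, the replicate block and leaving out arrays.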

Additional observations from a re-analysis of the deposited data

How the results depend on the processing

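Over 28 alternative settings, limma made 3 calls among 1620 values of the receptors. All came from pooling the 6 WT arrays, where the change of dKO from WT minus that of Ikzf2-/- from WT had 3 receptors called (Ctla4 0.47, Cd200 0.65, Cd28 0.31), against 0 with WT split by set. That setting compares dKO with Ikzf2-/- across sets directly, and it called 3669 of all genes. Leaving out any single array left the number of receptors called at 0 in the 4 comparisons and the 2 differences of changes. For the average change with Ikzf2 loss it gave 0 to 1. Over all genes, that average had 24 calls with all arrays and 7 to 96 with 1 array left out. With replicate numbers as a block, within the first set alone, 0 receptors were called, and Cd28 had an adjusted p of 0.110 against WT and 0.184 against Ikzf4-/-. The block changed no call among the receptors. The lowest adjusted p of Cd28 over the alternatives was 0.0586 against WT (with array weights) and 0.0797 against Ikzf4-/-. Over all genes, the number called ranged over the alternatives from 0 to 410 in Ikzf2-/- against WT (7 with the reported fit; 410 without Ikzf2-/- 1, 169 without Ikzf2-/- 2, 64 with array weights), from 0 to 21 in both comparisons with dKO (7 against WT, 3 against Ikzf4-/-), and from 0 to 1 in Ikzf4-/- against WT (0). The cause was not tested. Signs of uncalled values changed in 114 of the 1620. The simulated fits recovered 52% to 56% of genes changed by log2 0.5, and 88% to 98% of those changed by 1. They used independent noise of equal spread in all groups, which the real arrays did not have.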

Other observations

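The average of Ikzf2-/- minus WT 4 to 6 and dKO minus Ikzf4-/- uses both sets to measure loss of Ikzf2; it was chosen after seeing the data. Lag3 averaged a log2 change of 0.64 (SE 0.17, 95% interval 0.28 to 1.00), Icos 0.38 (SE 0.10, 0.15 to 0.60), Cd28 0.25 (SE 0.07, 0.10 to 0.39) and Klrg1 0.69 (SE 0.31, 0.04 to 1.35). These 4 had an unadjusted p under 0.05, which 8.14% of all genes had with a higher value, and 0 of 9 passed limma's adjusted threshold, which 0.219% of all genes passed. Adjusted p was 0.155 for Lag3, 0.186 for Icos and 0.178 for Cd28. Single arrays decide whether a call is made: without Ikzf4-/- 2 the adjusted p of Lag3 was 0.0147, and without Ikzf2-/- 2 that of Cd28 was 0.0385. Over all 10964 genes, these fits called 28 and 96, against 24 with all arrays. Leaving out each array in turn gave ranges of 0.0147 to 0.361 for Lag3, 0.0651 to 0.391 for Icos and 0.0385 to 0.359 for Cd28. Ctla4 (0.07), Pdcd1 (0.01), Tigit (0.16), Btla (-0.08) and Cd200 (-0.16) had intervals that include 0.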
